A study of Daphnia magna with 230 samples.

Results

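Pyriproxyfen is a juvenile hormone analog used as an insecticide, and 97 *Daphnia magna* transcripts were lower with it in laboratory water and in wetland water alike. They were taken from a table of 29127 transcripts, of which 16482 had a mean of at least 1 CPM (counts of a transcript scaled to its library's total) in the 69 libraries of the wetland experiment. For each transcript the difference in mean log2(CPM + 1) between 0.119 and 0 µg/L pyriproxyfen was computed in laboratory water and in wetland water, the higher of both differences was kept, and the 100 transcripts with the lowest such value were taken. Of those 100, 3 are superoxide dismutase transcripts and were left out, since the rule excludes 4 named superoxide dismutase rows. The 97 members were therefore chosen by their measured difference, and the values of these 2 contrasts are descriptions with no test.

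The libraries were made from whole bodies of *D. magna* from Carolina Biological Supply, started as neonates and exposed for 96 h, with 5 neonates pooled in each library. Although the labels give the same supplier for all libraries, the study's methods mention different genetic backgrounds in the wetland and stormwater experiments, so that background and experiment cannot be told apart where levels of both are set side by side. The laboratory water groups held 5 libraries each at 0, 0.119 and 0.239 µg/L. Water from 6 Minnesota wetlands (Breen, Douglas, Kandiyohi, Kerk, LeSouer and Woodland) gave 30 libraries at 0 µg/L, 5 from each wetland, and 24 at 0.119 µg/L, between 3 and 5 from each. The stormwater experiment used no pyriproxyfen: it held 45 spring, 44 early summer and 50 late summer libraries in stormwater, and 6, 5 and 10 libraries of a laboratory control in well water (SCSU Control) in the same seasons. The stormwater came from 9 sites, all sampled in every season, which were stormwater pipes and the inflow and outfall of iron-enhanced sand filters, with 4 to 10 libraries from each site and season. The 30 treated neonates of a group shared one water before they were divided into pools, so the spread between libraries is that between pools and not between separately collected waters. Pyriproxyfen was delivered in ethanol, the unspiked wetland waters received ethanol alone and the laboratory control received water only, so that pyriproxyfen and its carrier cannot be told apart in laboratory water. Library totals ran from 5040650 to 15037010 estimated counts, which puts 3 counts, the lowest level treated here as detected, between 0.1995 and 0.595 CPM.

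In arthropods juvenile hormone acts through the receptor Methoprene-tolerant and sets the timing of development and reproduction. In *Daphnia* its analogs lead mothers to produce male offspring. The juvenile animals sequenced here grow and molt repeatedly, and whole-body RNA mixes gut, cuticle, fat and germ line. In such bulk samples, fewer cells of a type and less RNA per cell cannot be told apart.

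Names were available for few members. The lists published with the study named 19 of the 97 as a protein of some kind, gave another 19 as uncharacterized, conserved or hypothetical, and had no entry for 59. Those lists hold transcripts that the study selected on these samples, so that a name here is not independent of the response. The named members fall into a few groups: 5 transcripts for proteins with a JmjC domain, a fold found in enzymes that remove methyl groups from histones, a histone H3.2, a cathepsin L cysteine peptidase, 2 clip-domain serine proteases, which act in extracellular protease cascades of insect immunity, 2 double oxidases with peroxidase domains, and 2 esterases. The IDs of the members were matched to no entry of the reference gene table, and no sequence or position is given.

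The median difference of the members between 0.119 and 0 µg/L was -1.04 on the log2 scale in laboratory water and -1.14 in wetland water, where the medians over all 16482 transcripts were 0.09 and 0.07. The water with the difference nearer to 0 was laboratory water for 58 members and wetland water for 39. Both differences were under -1 for 35 members and under -2 for 5. At the end of the list stood Dapma7bEVm019386t1, at -0.69 in laboratory water and -0.95 in wetland water, and the 4-aminobutyrate aminotransferase Dapma7bEVm004192t1, an enzyme that degrades GABA, at -2.56 and -0.68. Just outside were the JmjC transcript Dapma7bEVm002582t1, at -0.67 and -2.69, and Dapma7bEVm019384t1, at -0.81 and -0.67.

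**Figure D1:**
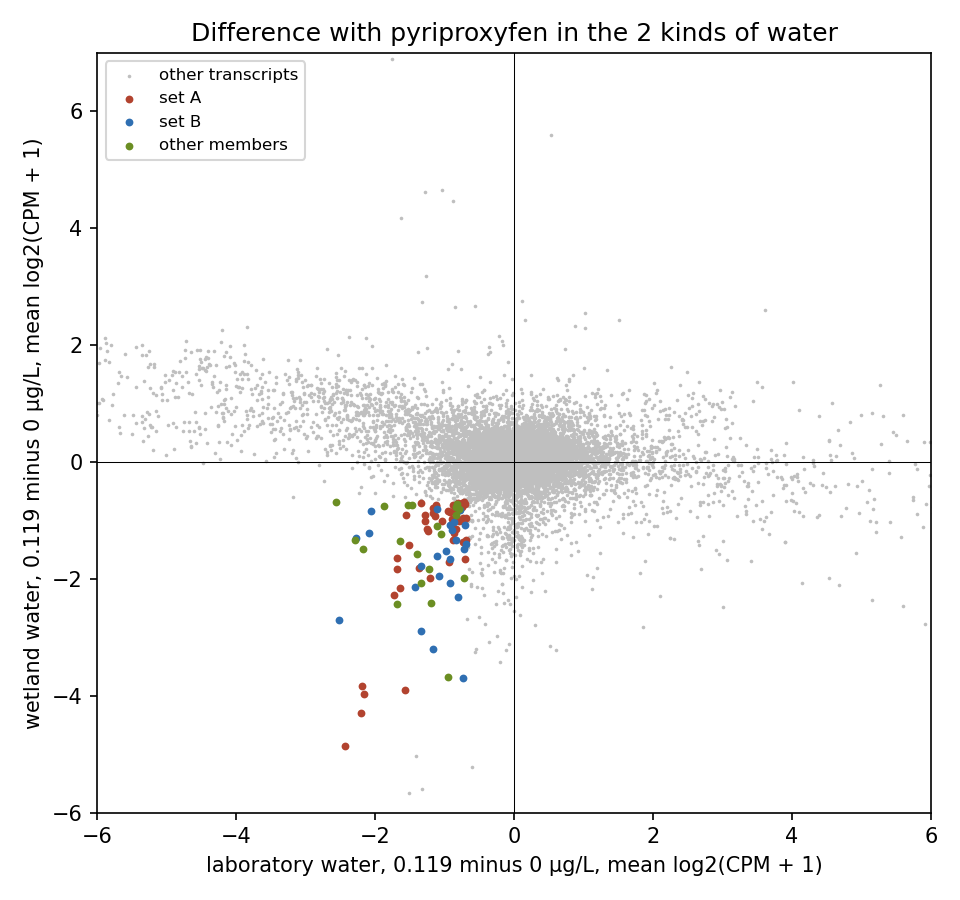
Difference in mean log2(CPM + 1) between 0.119 and 0 µg/L pyriproxyfen in laboratory water (x axis) and wetland water (y axis) for 16482 transcripts (values beyond the axes are not drawn), with the 97 members in colour by the sets described further on. The members fill the lower left corner because the rule took them from it.

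The cathepsin L transcript Dapma7bEVm010066t1, a digestive and lysosomal peptidase, was the most extreme by the rule. In laboratory water it stood at 36.5, 38.2, 29.4, 39.03 and 31.0 CPM without pyriproxyfen and at 7.23, 8.42, 3.02, 5.48 and 3.69 CPM with 0.119 µg/L, or 34.8 ± 4.35 against 5.57 ± 2.29 CPM (SD, n = 5 each). Every library with pyriproxyfen lay below every library without. In wetland water its lowest, median and highest values were 9.28, 47.9 and 187 CPM over 30 unspiked libraries and 1.20, 6.96 and 32.7 CPM over 24 with 0.119 µg/L, and 22 of the unspiked libraries lay above all those with pyriproxyfen. By wetland its log2 difference ranged from -3.95 in Douglas water to -1.13 in Kerk water.

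Among the other members with separate laboratory groups was bestrophin, a chloride channel (Dapma7bEVm010862t1). It read 6.08, 7.22, 7.60, 5.24 and 7.57 CPM at 0 µg/L and 0.693, 1.24, 0.389, 0.711 and 0.599 CPM at 0.119 µg/L. In wetland water its median went from 3.54 to 0.384 CPM. Histone H3.2 (Dapma7bEVm008245t1), a histone made when DNA is copied, was at 6.25, 2.08, 3.62, 3.39 and 6.81 CPM in the unspiked laboratory libraries and between 0 and 0.195 CPM in those with 0.119 µg/L, under the level of 3 counts. The wetland groups of this histone overlapped: 6 of 30 unspiked libraries and 23 of 24 with pyriproxyfen held no more than 3 counts.

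The double oxidase Dapma7bEVm023994t1 read 143.3, 89.4, 87.6, 116.9 and 86.5 CPM at 0 µg/L in laboratory water and 32.8, 23.1, 8.25, 38.1 and 13.9 CPM at 0.119 µg/L. Its name in the lists describes peroxidase domains, and what the protein does was not tested here. The second, Dapma7bEVm004682t1, ranged from 72.3 to 106.3 CPM and from 11.02 to 32.7 CPM in the same groups. In wetland water both overlapped widely, the first with medians of 42.9 and 14.6 CPM and the second with 35.6 and 19.5 CPM. Dapma7bEVm004489t1, named after a zygote-specific gene, had 296 ± 68.6 CPM at 0 µg/L and 71.0 ± 24.3 CPM at 0.119 µg/L in laboratory water (SD, n = 5 each). Its wetland medians were 202 and 77.0 CPM.

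The quinone oxidoreductase PIG3 (Dapma7bEVm006339t1) and the Ral exchange factor RalGPS2 (Dapma7bEVm004602t1) also had laboratory groups that did not overlap. The former lay between 5.21 and 7.04 CPM at 0 µg/L and between 0.594 and 2.07 CPM at 0.119 µg/L, the latter between 36.4 and 134.4 CPM and between 15.9 and 31.0 CPM. In all, 28 of the 97 members had every laboratory library with 0.119 µg/L below every library without, where 6.39% of the 16482 transcripts did. The rule used this contrast, so nothing is read from that count. In wetland water the groups overlapped for every member, 0 of 97 being separate, and for all transcripts as well (0%).

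**Figure D2:**
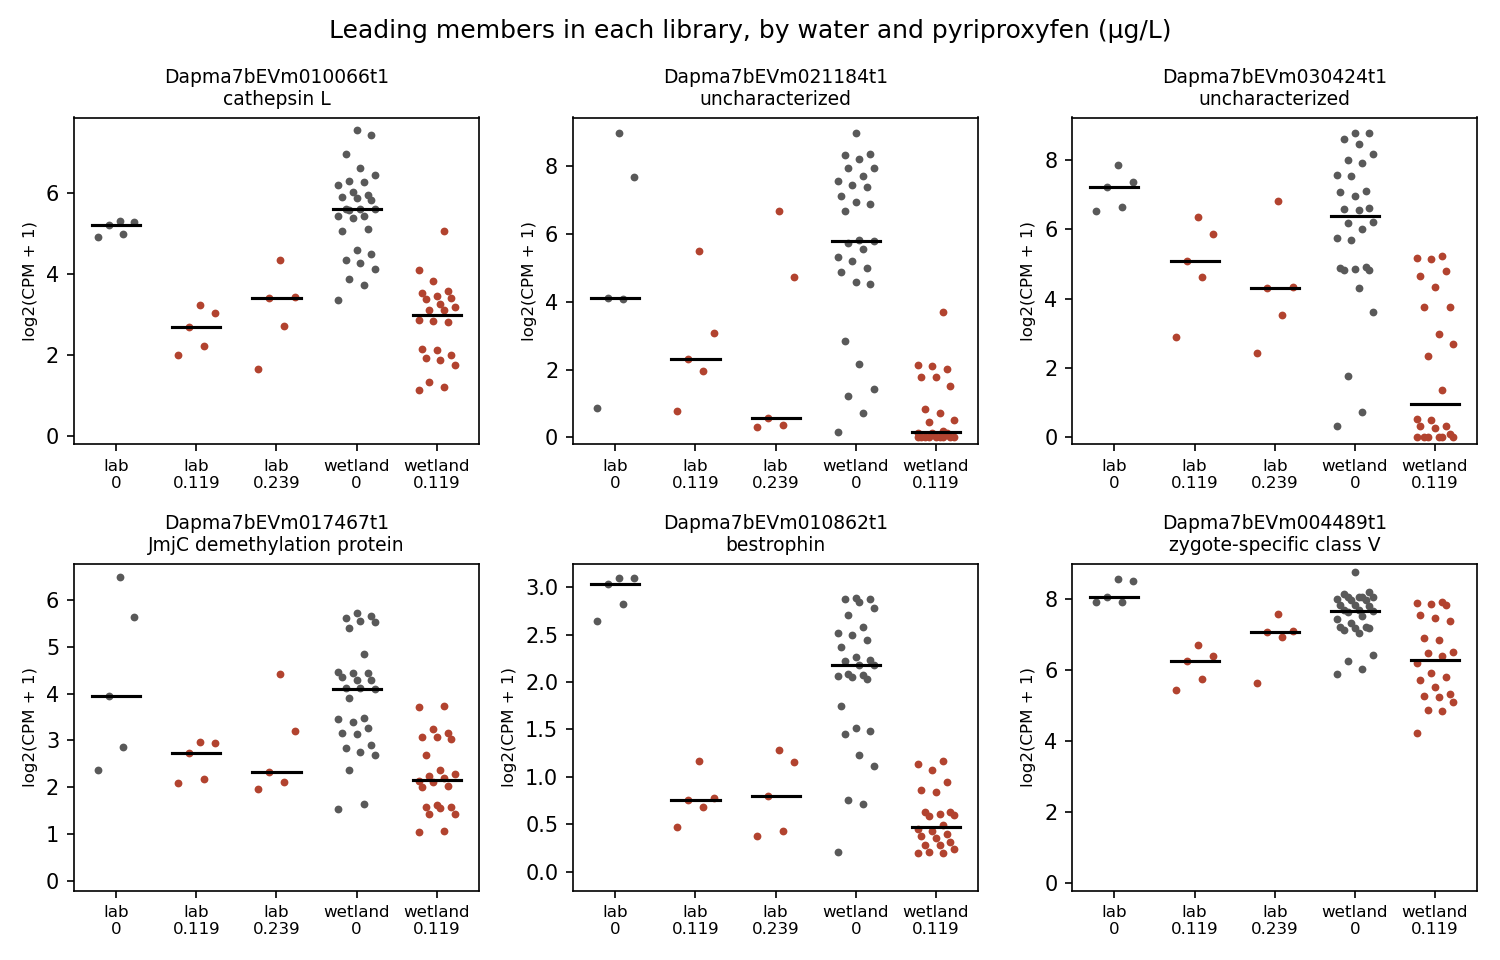
log2(CPM + 1) of 6 members in each library of the wetland experiment (points) with group medians (bars), by water and pyriproxyfen in µg/L on the x axis. The cathepsin L and bestrophin transcripts separate the laboratory groups, whereas Dapma7bEVm021184t1 covers several log2 units within a group.

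A second group of members varied far more between libraries of one water. Dapma7bEVm021184t1, an uncharacterized protein, had the lowest wetland difference of all members (-4.86) and -2.43 in laboratory water. Its laboratory values were 500, 16.4, 0.846, 16.1 and 205 CPM at 0 µg/L and 3.98, 44.4, 0.716, 2.88 and 7.41 CPM at 0.119 µg/L. The groups overlapped, and the 5 unspiked libraries alone spanned more than the difference between the groups. In wetland water the lowest, median and highest values were 0.123, 55.1 and 508 CPM at 0 µg/L and 0, 0.120 and 12.1 CPM at 0.119 µg/L. No more than 3 counts were found in 1 of 30 unspiked libraries and in 13 of 24 with pyriproxyfen.

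The uncharacterized Dapma7bEVm021584t1 and Dapma7bEVm018126t1 followed the same libraries. The former read 338, 8.73, 1.03, 5.64 and 104 CPM at 0 µg/L in laboratory water, the latter 172, 5.88, 0.444, 5.05 and 59.4 CPM, in the same library order as above. With 0.119 µg/L their wetland medians were 0.130 and 0 CPM, against 41.6 and 17.9 CPM without. Replicate 2 with 0.119 µg/L was the highest of its group for all 3 transcripts.

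Dapma7bEVm030424t1 and Dapma7bEVm020225t1, both uncharacterized, were among the members whose laboratory groups were separate. The former read 148.5, 98.8, 91.7, 164 and 232 CPM at 0 µg/L and 57.4, 32.7, 23.5, 81.0 and 6.48 CPM at 0.119 µg/L. Its wetland median went from 82.3 to 1.02 CPM and that of Dapma7bEVm020225t1 from 89.2 to 1.11 CPM. Of the rest of the 15 lowest members, Dapma7bEVm006519t1 had wetland medians of 24.1 and 3.35 CPM, Dapma7bEVm023911t1 of 12.05 and 1.32 CPM, Dapma7bEVm020442t1 of 2.45 and 0 CPM and Dapma7bEVm022165t1 of 3.97 and 0 CPM. Dapma7bEVm022839t1 was at 3.01, 1.02, 189, 191 and 232 CPM in the unspiked laboratory libraries, 2 of them below all 5 values at 0.119 µg/L, which ran from 4.37 to 48.3 CPM.

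The 5 JmjC transcripts were low in the same way. Dapma7bEVm017467t1 read 89.2, 14.3, 4.20, 6.31 and 48.5 CPM at 0 µg/L in laboratory water and 6.77, 5.60, 3.23, 3.55 and 6.76 CPM at 0.119 µg/L. In wetland water its medians were 16.2 and 3.49 CPM. Dapma7bEVm027674t1 had wetland medians of 6.12 and 1.48 CPM, Dapma7bEVm029406t1 of 6.36 and 0.0137 CPM, Dapma7bEVm010229t1 of 6.38 and 2.06 CPM, and Dapma7bEVm029395t1 of 19.7 and 7.99 CPM. Cyclin-O (Dapma7bEVm004796t1), a member of the cyclin family, was low throughout, with 1.85 and 0.377 CPM. Among these 6 transcripts no laboratory group with 0.119 µg/L was wholly below the unspiked group.

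The clip-domain proteases and the esterases had larger differences in wetland water than in laboratory water. Dapma7bEVm027505t1 had a wetland median of 88.7 CPM at 0 µg/L and 8.93 CPM at 0.119 µg/L, and Dapma7bEVm000761t1 of 32.1 and 2.49 CPM. In laboratory water the latter read 17.5, 16.3, 43.6, 76.5 and 4.48 CPM without pyriproxyfen and 4.98, 20.7, 5.65, 4.38 and 11.8 CPM with 0.119 µg/L. Those groups overlapped. The esterase Dapma7bEVm015053t1 went from a wetland median of 85.3 to 2.90 CPM and Dapma7bEVm011534t1 from 11.5 to 1.46 CPM. In laboratory water Dapma7bEVm015053t1 stood at 156.6 CPM in 1 unspiked library and between 1.81 and 11.7 CPM in the other 4.

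Across the 6 wetlands, 60 of the 97 members had a lower mean with 0.119 µg/L in every wetland, 28 in 5 of them and 9 in 4 or fewer. All 97 were lower in Douglas water, 95 in LeSouer, 92 each in Breen and Kandiyohi, 84 in Woodland and 76 in Kerk water. The share of all 16482 transcripts that were lower ranged from 34.9% in Breen to 60.9% in Kerk water. The median difference of the members was -2.17 in Douglas, -1.74 in LeSouer, -1.28 in Breen, -1.15 in Kandiyohi, -0.69 in Kerk and -0.57 in Woodland water. These differences made up the wetland side of the rule, and the difference between wetlands was not tested.

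At 0.239 µg/L, a concentration the rule used only in its limit on mean CPM, 90 of the 97 members had a lower mean in laboratory water than the unspiked libraries. The median difference was -0.64, beside -1.04 at 0.119 µg/L. Of all 16482 transcripts 40.0% were lower at 0.239 µg/L, with a median of 0.08. Both concentrations share the same 5 unspiked libraries, so the second set of differences is not independent of the first. Against the 0.119 µg/L libraries, 14 members were lower at 0.239 µg/L and the median member was higher by 0.30. Over all 16482 transcripts 51.3% were lower, with a median of -0.008. The rule took the members for low values in these 0.119 µg/L libraries, so nothing is read from this comparison.

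The cathepsin L transcript Dapma7bEVm010066t1 read 9.89, 2.17, 5.66, 19.4 and 9.74 CPM at 0.239 µg/L, all below the unspiked libraries. Bestrophin (Dapma7bEVm010862t1) read 1.44, 0.343, 1.22, 0.299 and 0.734 CPM, and histone H3.2 (Dapma7bEVm008245t1) between 0 and 0.192 CPM. Dapma7bEVm021184t1 split into 101.96 and 25.7 CPM in 2 libraries and 0.243, 0.291 and 0.480 CPM in the other 3. The clip-domain protease Dapma7bEVm027505t1 read 90.3, 67.4, 103, 16.1 and 48.0 CPM, within the span of its unspiked libraries.

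The most abundant member, Dapma7bEVm027442t1, a conserved protein, had medians of 10165 CPM in unspiked laboratory water, 8144 CPM at 0.119 µg/L and 12584 CPM at 0.239 µg/L, and of 639 and 616 CPM in unspiked and spiked wetland water. The wetland medians pool waters of very different level: among the unspiked wetland waters its median ranged from 196 CPM in LeSouer to 7785 CPM in Kerk water. Dapma7bEVm027441t1 moved beside it, at 29.7 and 740 CPM in the same waters.

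Whether the unspiked wetland waters differed among themselves was tested over their 30 libraries with edgeR's quasi-likelihood F test and Benjamini-Hochberg adjustment. These libraries also formed the unspiked side of the rule's wetland difference, so nothing is read from the count of members. An adjusted p under 0.05 was found for 6 of the 97 members, where 3.78% of 25896 transcripts had one. They were Dapma7bEVm027442t1 (adjusted p = 0.000127 by edgeR), Dapma7bEVm027441t1 (0.000328), Dapma7bEVm024600t1 (0.00273), Dapma7bEVm002390t1 (0.00953), cathepsin L Dapma7bEVm010066t1 (0.0233) and the aminotransferase Dapma7bEVm004192t1 (0.0350). The uncharacterized Dapma7bEVm002390t1 ranged from a median of 6.44 CPM in Kerk to 118.1 CPM in Breen water, and cathepsin L from 13.7 CPM in Kerk to 73.1 CPM in LeSouer water. Leaving out replicate 2 or replicate 5 of every wetland lowered the count to 2.

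**Figure D3:**
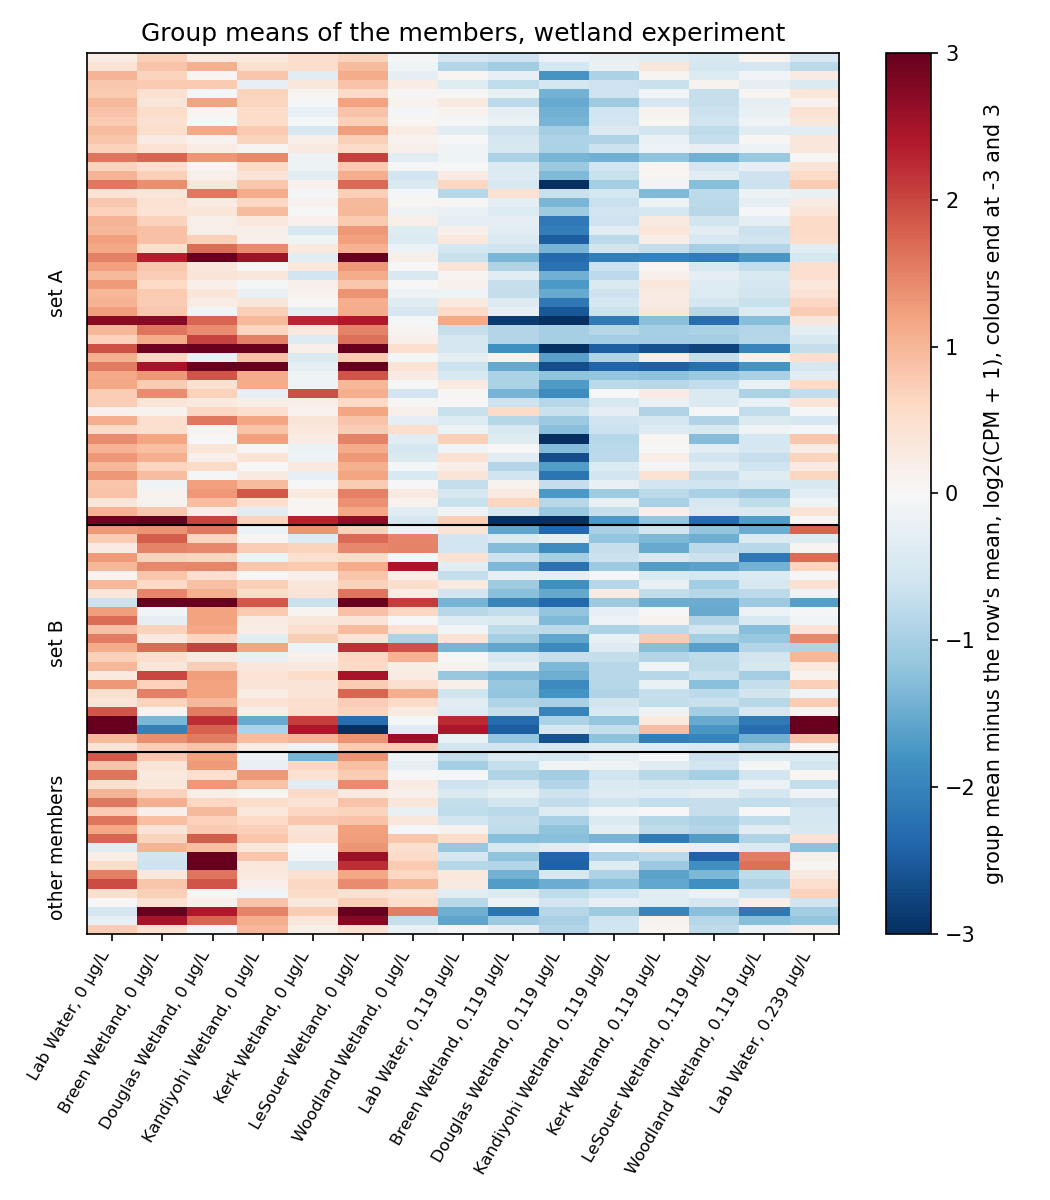
Group means of the 97 members (rows) in the 15 groups of the wetland experiment (columns), as the difference from the row's mean in log2(CPM + 1), with colours ending at -3 and 3. Unspiked groups on the left are mostly above the row mean and groups with 0.119 µg/L mostly below. The colours are palest in Woodland water, where the members' median difference was -0.57.

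The 160 libraries of the stormwater experiment took no part in choosing the members, and there the members fell into sets that varied together. Average-linkage clustering on 1 minus Spearman's rho, cut at a distance of 0.6, placed 52 members in one cluster and 25 in another, called set A and set B here. A further 15 members formed 4 small clusters and 5 stood alone. The sets were drawn from these values and get no test. Set A holds Dapma7bEVm021184t1, Dapma7bEVm021584t1, Dapma7bEVm018126t1, Dapma7bEVm030424t1, Dapma7bEVm020225t1, the 5 JmjC transcripts and cyclin-O. Set B holds cathepsin L, both clip-domain proteases, both double oxidases, the esterase Dapma7bEVm011534t1, Dapma7bEVm004489t1 and Dapma7bEVm027442t1. Bestrophin, histone H3.2 and the quinone oxidoreductase were in small clusters.

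The mean pairwise rho was 0.68 within set A and 0.56 within set B over the 160 libraries, where the mean over all transcripts with values was 0.11. Between the sets it was -0.23. With each group's mean removed, so that only differences between libraries of one water remained, it was 0.67 and 0.60. In the 69 libraries of the wetland experiment, also within groups, it was 0.57 in set A and 0.55 in set B, and 0.04 over all transcripts. These are descriptions over transcripts that share their libraries and depth. With a distance limit of 0.5, 51 of the 52 members of set A and 16 of the 25 of set B stayed in one cluster.

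**Figure D4:**
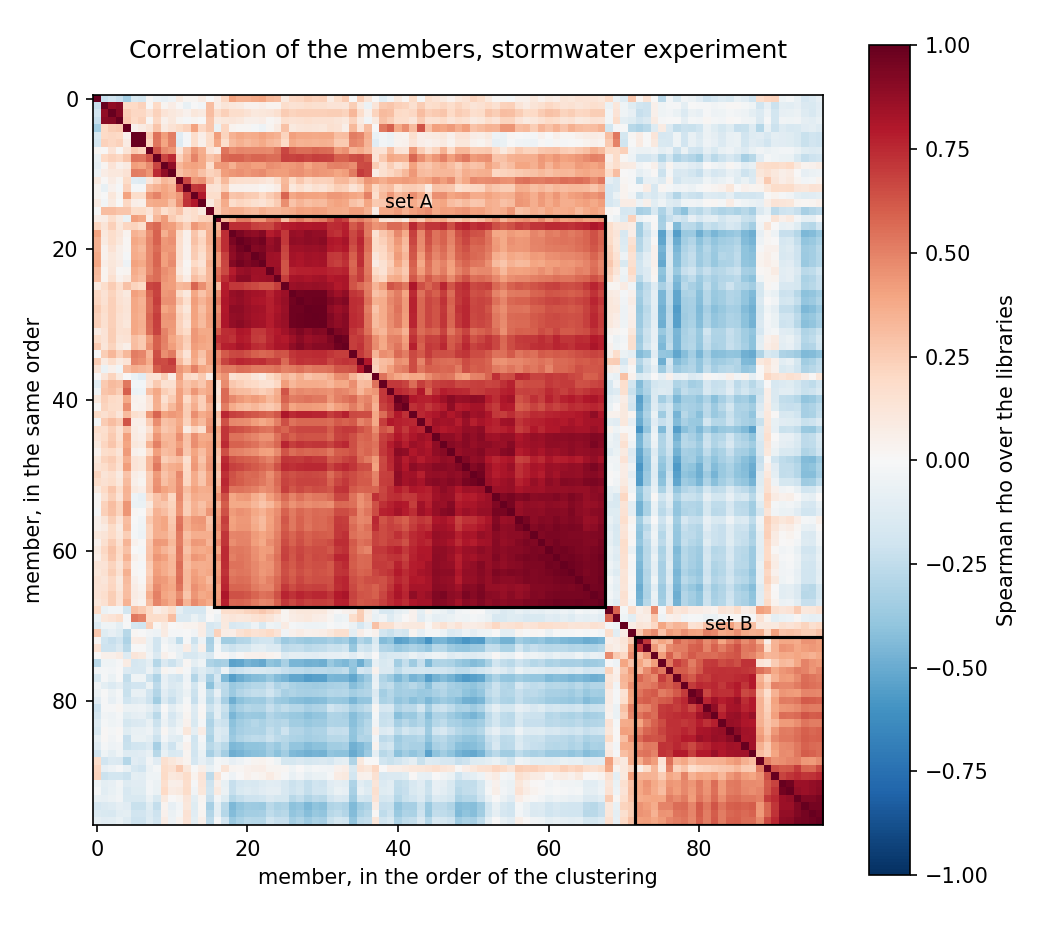
Spearman's rho between each pair of the 97 members over the 160 libraries of the stormwater experiment, in the order of the clustering on both axes. The 2 outlined blocks are set A (52 members, mean rho 0.68) and set B (25 members, mean rho 0.56), with a mean rho of -0.23 between them.

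The level of a set in a library was taken as its mean log2(CPM + 1). In the wetland experiment set A ran from 3.64 to 5.29 in unspiked laboratory water and from 2.69 to 3.67 at 0.119 µg/L. Over the unspiked wetland libraries its lowest, median and highest levels were 0.98, 4.24 and 5.21, and with 0.119 µg/L 1.12, 2.63 and 3.94. Unspiked libraries of Woodland, Kerk and Douglas water had levels as low as 0.98, 1.59 and 1.60, and these 3 lay below 23 of the 24 libraries with pyriproxyfen. Set B ran from 3.87 to 6.91 in unspiked and from 2.25 to 6.44 in spiked wetland water. By wetland, the median difference of set A members was -0.36 in Kerk and -0.35 in Woodland water and between -2.17 and -1.19 in the others, and that of set B members was -0.99 in Kerk and -1.59 in Woodland water. At 0.239 µg/L in laboratory water all 52 members of set A were below the unspiked mean, with a median of -0.66, and 19 of the 25 of set B, with a median of -0.36.

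Set A levels in the stormwater experiment were spread as widely without any pyriproxyfen. The lowest, median and highest were 1.13, 4.04 and 5.56 in spring stormwater, 1.36, 4.07 and 5.15 in early summer, and 1.36, 3.64 and 5.48 in late summer. Within single waters the 5 pools could cover this span, as in spring water of PIPE-SAP, from 1.13 to 5.03. For Dapma7bEVm021184t1, 11 of the 45 spring stormwater libraries were under 1 CPM and 24 were at 100 CPM or more. The superoxide dismutase transcripts that the rule leaves out moved with set A, at rho 0.92 to 0.93 over the 160 libraries, and the most abundant, Dapma7bEVm009708t1, ranged there from 3.23 to 73515 CPM. Set A and the library total correlated at rho 0.33, set B and the number of transcripts with a count at rho 0.49, and the part of depth in these levels was not tested.

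The early summer laboratory controls lay in the lower part of the set A range of the stormwater of their season. Their 5 libraries had set A levels of 2.79, 2.61, 1.65, 1.43 and 1.86, where 40 of the 44 stormwater libraries lay above 2.79. Stormwater and controls were compared in each season with edgeR's quasi-likelihood test, and a call needed an adjusted p under 0.05 and a log2 fold change over 2 in size. The tests count pools of one water as separate libraries. Their p-values and standard errors therefore measure the spread between pools as well as between sites. In early summer 36 of the 97 members were called higher in stormwater than in the controls, where 1.28% of 25937 transcripts were, and 1 was called lower, where 1.65% were. The median log2 fold change was 1.33 for the members and -0.001 for all transcripts. All 36 belong to set A, whose members vary together and are not separate observations of the season. The sets were drawn from libraries that include these. Nothing is therefore read, here or below, from how calls split between the sets. The 5 controls are pools of one control treatment in laboratory well water. The paper states that all stormwater exposures took place in January, so a control's season label is not a season of exposure. The season of the stormwater and that single control exposure cannot be told apart.

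Dapma7bEVm021184t1 had 1 count in the 5 early summer controls together, and 0 in 4 of them, against a median of 22.6 CPM and a range of 0 to 432 CPM in stormwater. The ratio of the means was 3978, with a 95% interval of 714 to 157105 from the counting error of that 1 count. Dapma7bEVm018126t1 was at 0 in all 5 controls and averaged 28.4 CPM in stormwater, at least 81.7-fold higher when 3 counts in the shallowest control library are taken as the limit. Dapma7bEVm022165t1 was likewise at least 22.1-fold and Dapma7bEVm029406t1, one of the JmjC transcripts, at least 23.7-fold higher. In all, 5 members were at 0 in every early summer control.

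Members with counts in the controls give measured folds. Dapma7bEVm009662t1 averaged 120 CPM in early summer stormwater and 15.6 CPM in the controls, a log2 fold change of 3.20 ± 0.66 (standard error, edgeR adjusted p = 0.000536). Dapma7bEVm028354t1 averaged 76.9 and 13.7 CPM, at 2.75 ± 0.56 (edgeR adjusted p = 0.000493). All 5 JmjC transcripts were called higher in stormwater. Dapma7bEVm017467t1 read 0.758, 0.900, 0, 0.908 and 2.51 CPM in the controls and had a median of 9.49 CPM in stormwater, at 4.14 ± 1.08 (edgeR adjusted p = 0.00377). Dapma7bEVm029395t1 read 4.36, 6.73, 2.41, 2.54 and 5.21 CPM against a median of 15.1 CPM, at 2.41 ± 0.61 (edgeR adjusted p = 0.0029). Cyclin-O (Dapma7bEVm004796t1) was called higher too, at 3.61 ± 1.15 (edgeR adjusted p = 0.0155).

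The groups overlapped for every one of these members, since a few early summer stormwater libraries were as low as the controls. For Dapma7bEVm021184t1, 9 of the 44 were under 1 CPM, as were all 5 controls. Without the limit on the fold change, 58 members were higher in stormwater at an adjusted p under 0.05, where 14.2% of all transcripts were, and 3 were lower, where 13.2% were. Set A gave 51 of the 58. No set B member was higher, and set B levels in the controls, from 2.55 to 5.73, lay within the stormwater range of 0.86 to 5.42 but for the highest. The single member called lower, Dapma7bEVm000238t1 of set B, read 0.527, 1.52, 1.04, 4.04 and 22.3 CPM in the controls and had a median of 0.149 CPM in stormwater, at -2.59 ± 0.83 (edgeR adjusted p = 0.0165). Without the control library at 22.3 CPM its log2 fold change was -0.90 and its adjusted p 0.575.

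In spring and late summer no member was called between stormwater and controls by edgeR, where 0.00386% of 25917 spring transcripts were called higher and 0.0347% lower, and in late summer 0% of 26067 were called higher and 0.0192% lower. At an unadjusted p under 0.05 there were 9 members in spring and 6 in late summer. DESeq2 called 1 member in spring and 0 in late summer. These counts are given without the share over all transcripts, so nothing is read from them. The spring controls had set A levels from 1.11 to 5.13 and the late summer controls from 1.77 to 5.19, beside 1.13 to 5.56 and 1.36 to 5.48 in stormwater.

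Whether the contrast of stormwater with controls differed between spring and early summer was tested as an interaction in one edgeR fit, added after these values were seen. The controls of each season are pools of one control treatment, so season and that exposure cannot be told apart here either. Pools of one water again count as separate libraries in this fit. The contrast of stormwater with controls was more positive in early summer than in spring for 12 members, where 0.432% of 26161 transcripts were called so, and more negative for 1, Dapma7bEVm002002t1 of set B, where 0.711% were. The 12 are all of set A and include Dapma7bEVm021184t1, Dapma7bEVm030424t1, Dapma7bEVm020225t1 and the JmjC transcripts Dapma7bEVm017467t1 and Dapma7bEVm029406t1.

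**Figure D5:**
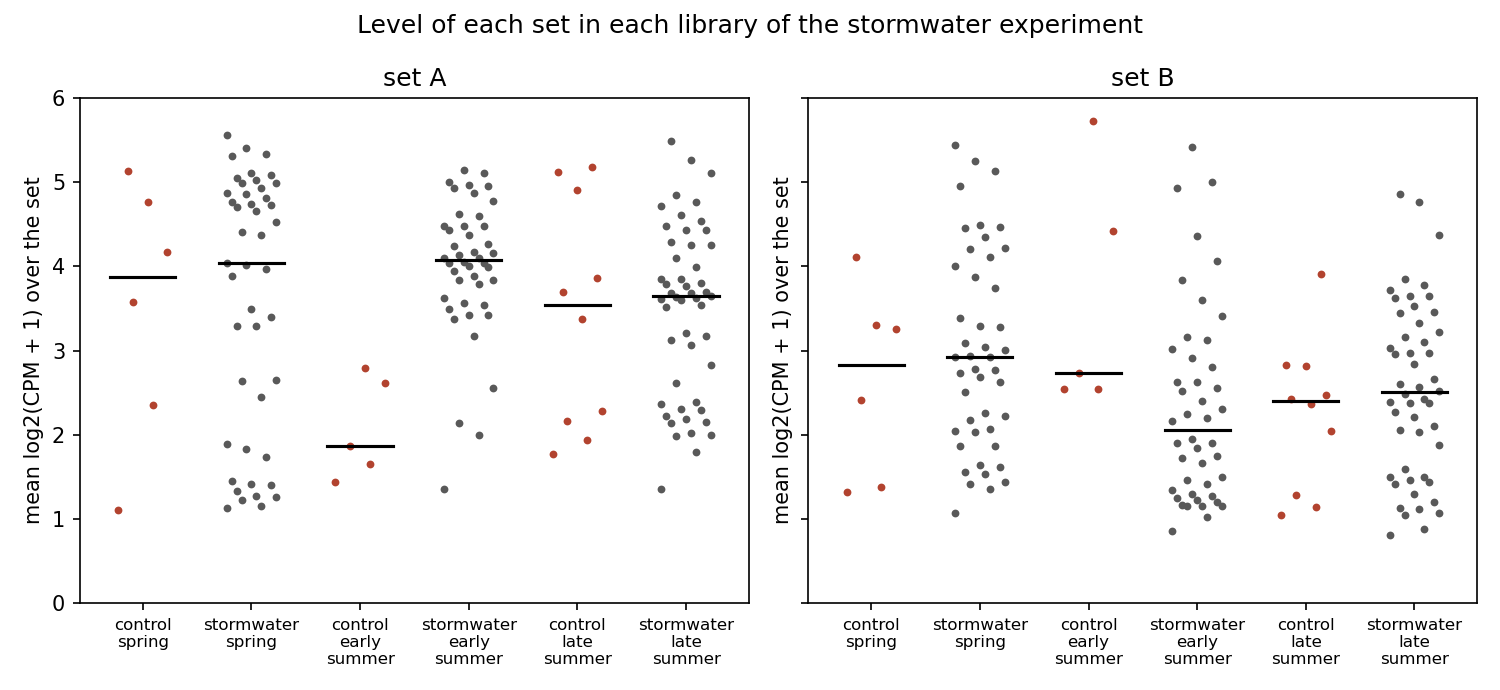
Level of set A (left) and set B (right) in each library of the stormwater experiment, as mean log2(CPM + 1) over the set, by season for laboratory controls (red) and stormwater (grey), with group medians as bars. The 5 early summer controls lie between 1.43 and 2.79 in set A, in the lower part of the stormwater range, whereas the controls of the other seasons span it.

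Between the controls labelled with different seasons edgeR called few members. It called 0 of 97 between spring and early summer, where 0% of 25025 transcripts were called in either direction. For those 2 seasons 27 members had an unadjusted p under 0.05, and DESeq2 called 11 members higher in spring. The median log2 fold change of the members was 1.04, where that of all transcripts was -0.006. Between early and late summer edgeR called 0 members, where 0.174% of 25338 transcripts were called higher and 0.0355% lower in early summer. At an unadjusted p under 0.05 there were 53 members, and DESeq2 called 4 higher and 17 lower. The counts at an unadjusted p and by DESeq2 have no share over all transcripts beside them, so nothing is read from them. Without the limit on the fold change edgeR gave 1 member higher and 0 lower in early summer, where 0.205% and 0.154% of all transcripts were. Between spring and late summer 1 member was called higher in spring, where 0.315% of 25402 were, and 0 lower, where 0.114% were. This was the esterase Dapma7bEVm015053t1, whose median was 0.0457 CPM over 6 spring libraries, with a highest value of 11.1 CPM. It held 1 count in the 10 late summer controls together, which gave a ratio of 306 with a 95% counting interval of 55.0 to 12101 (edgeR adjusted p = 0.0199). Without the second set of late summer controls its adjusted p was 0.348, without spring replicate 3 it was 0.0688, and without late summer replicate 5 it was 0.158.

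Between seasons of stormwater, few members were called and all were higher in the earlier season. Spring against late summer gave 5 members higher in spring, where 1.16% of 26167 transcripts were, and 0 lower, where 0.344% were. The largest difference was that of Dapma7bEVm002390t1, at 14.5 CPM on average in spring and 0.886 CPM in late summer, a log2 fold change of 4.14 ± 0.51 (edgeR adjusted p = 1.35e-10). Its median was 2.52 CPM and its highest value 225 CPM in spring, and 0.381 and 5.45 CPM in late summer, so the means rest on a part of the spring libraries. The others were Dapma7bEVm024600t1, Dapma7bEVm008155t1, cyclin-O Dapma7bEVm004796t1 and the esterase Dapma7bEVm015053t1, at 2.63, 2.14, 2.07 and 2.84 on the log2 scale. These tests count the pools of one water as separate libraries, so their p-values measure the spread between pools as well as between sites. With counts summed over the pools of each site and season, 4 members were called in spring against late summer, and Dapma7bEVm002390t1 had a log2 fold change of 4.10 (edgeR adjusted p = 0.00275). The share of all transcripts called on summed counts is not given, so nothing is read from how many members were called.

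Early against late summer gave 2 members higher in early summer, Dapma7bEVm002390t1 at 2.62 ± 0.50 and Dapma7bEVm024600t1 at 2.06 ± 0.32, where 0.531% of 26192 transcripts were called higher, and 0 lower, where 0.55% were. With summed counts 2 members were called as well, Dapma7bEVm002390t1 at 2.54 (edgeR adjusted p = 0.0133). Spring against early summer gave 0 members, where 1.45% of 26128 transcripts were called higher and 0.459% lower. DESeq2 called 1 member and edgeR on summed counts called 0. At an unadjusted p under 0.05 there were 35 members. The numbers of members by DESeq2, on summed counts and at an unadjusted p have no share over all transcripts beside them. Nothing is read from those numbers. Without the limit on the fold change, at an adjusted p under 0.05 by edgeR, 19 members were higher in spring than in early summer and 4 lower, where 18.1% and 17.2% of all transcripts were. In spring against late summer it was 32 and 5, where 15.7% and 14.9% were, and in early against late summer 30 and 6, where 20.1% and 24.3% were. The median log2 fold change of the members was 0.33 in spring against early summer, where that of all transcripts was 0.03. It was 0.48 beside 0.02 in spring against late summer and 0.42 beside -0.04 in early against late summer.

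The other named transcripts of the pathways that members belong to were counted through 10 lists made from the names in the study's own tables, a choice that rests on these samples. Of 11 transcripts for histones and histone demethylation with a mean of 1 CPM or more, 6 are members. Of 74 peptidases 3 are members, of 17 peroxidases 2 and of 49 transcripts of xenobiotic metabolism and transport 2. None of the 84 cuticle and chitin, 39 lipid enzyme, 20 hormone and retinoid, 14 heme and globin, 12 mobile element or 6 ribosomal protein transcripts is a member. In early summer stormwater against controls, where 1.28% of all transcripts were called higher and 1.65% lower, 7 of 16 tested transcripts of the histone list were called higher and 0 lower by edgeR, 5 of the 7 being the JmjC members described above. The list's median log2 fold change was 0.59. In lists without a member, 8 of 14 heme and globin transcripts were called higher and 0 lower, with a median of 2.15, and 0 of 18 ribosomal protein transcripts were higher and 8 lower, with a median of -1.81. Higher and lower calls numbered 4 and 0 of 20 in the hormone and retinoid list, 6 and 2 of 45 lipid enzymes, 3 and 4 of 87 cuticle and chitin transcripts, and 2 and 3 of 32 mobile elements. Among the lists with members they numbered 0 and 3 of 76 peptidases, 1 and 1 of 17 peroxidases, and 2 and 4 of 52 in xenobiotic metabolism and transport, none of these calls being a member.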

How the data were processed

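The authors trimmed reads with Trimmomatic, checked them with FastQC and quantified transcripts with Kallisto. Their versions are not given in the sources used here. The deposited tables hold estimated counts per transcript, of which 31.4% were not whole numbers, rounded before testing. CPM were computed from column totals. The labels give pyriproxyfen as 119 and 239 ng/L, written here as 0.119 and 0.239 µg/L. The 97 members and all lists were chosen with earlier results of these data known. Of 230 libraries, 1 whose season label and code disagreed was left out. Tests ran on 26286 transcripts that varied in both experiments, less those at 0 in the groups compared, with edgeR 4.0.16 in R 4.3.3 (TMM scaling, glmQLFit and glmQLFTest, Benjamini-Hochberg adjustment over all transcripts tested) with DESeq2 1.42.0 as an alternative. Calls needed adjusted p under 0.05 and a log2 fold change over 2 in size, as in the study. The scripts were tested on simulated counts.

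Named were the 15 members with the lowest limiting difference, every other member with a protein name, the 2 rows on each side of the limit and, per stormwater season comparison, the members with the largest rise and fall. Others named were chosen after their values were seen. Among 449 pairs of replicate libraries none agreed within sampling noise. Late summer controls and 1 late summer stormwater site had a second set of 5 libraries each, and comparisons were also run without them. Intervals and the limit of 3 counts cover counting error only. Correlations of the deviations of same-numbered libraries were both negative and positive in every comparison, from -0.73 to 0.68 across all. Replicate numbers were therefore not used for pairing.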

Additional observations from a re-analysis of the deposited data

Results flagged for a closer look

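Of 57 groups of values examined for a library far from the others, 2 held one. For independent checks chance alone sets apart about 1 in 20. The 2 found are not independent: they are the same library, read for 2 transcripts of set A, which vary together. Replicate 2 of laboratory water with 0.119 µg/L had Dapma7bEVm018126t1 at 4.307 on the log2(CPM + 1) scale, with the other 4 libraries between 0.3714 and 1.391. The same library had Dapma7bEVm022165t1 at 1.867, with the others between 0.3783 and 0.5759. The contrast of stormwater with controls differed between early summer and spring for 12 members in the positive and 1 in the negative direction, by the edgeR interaction test. Season and the single control exposure of each season cannot be told apart in it.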

How the results depend on the processing

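Of the counts and medians computed under other settings, apart from those that left out 1 replicate, 51 stayed close to their value and 16 moved, and of those for single transcripts 21 kept their call and 3 lost it. None changed direction. With DESeq2 the members called numbered 1 for stormwater in spring against early summer, 1 for spring stormwater against controls, and, for controls, 11 in spring against early summer, 2 in spring against late summer and 21 in early against late summer, and 15 among the wetland waters. The share of all transcripts that DESeq2 called is not given, so these counts are not read as results about the members. With no threshold on the fold change there were 23, 37 and 36 for stormwater in spring against early summer, spring against late summer and early against late summer, 1 for controls in early against late summer, and 61 for early summer stormwater against controls. For controls in spring against late summer, 0 were called with edgeR's filterByExpr and 0 without the second set. For these last settings the share over all transcripts is not given either.

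With the replicate number as a block, 1 member was called for stormwater in spring against early summer, 1 in early against late summer and 1 for controls in spring against early summer, and Dapma7bEVm002390t1 had a log2 fold change of 1.93 (edgeR adjusted p = 0.0022) in early against late summer stormwater. The correlation of same-numbered libraries ran from -0.73 to 0.64 over the stormwater experiment, so the numbers were not taken to pair libraries. The block moved no other count by over 1.5 times. The share of all transcripts called with the block is not given, so these counts are not read as results about the members. By DESeq2 Dapma7bEVm000238t1 was at -2.65 (adjusted p = 0.0886).

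Leaving out 1 replicate at a time gave 2 to 4 members among the wetland waters. For controls it gave 0 to 0 in spring against early summer, 0 to 1 in spring against late summer and 0 to 1 in early against late summer. For stormwater against controls it gave 25 to 41 in early summer, 0 to 0 in spring and 0 to 0 in late summer. The share of all transcripts called in these fits is not given, so the counts are not read as results about the members. Dapma7bEVm000238t1 ran from -2.88 to -0.90 and Dapma7bEVm015053t1 from 5.61 to 7.96. The median laboratory difference ran from -1.14 to -0.83, and 73 to 90 of the members were taken again.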
